A study of Rattus norvegicus with 56 samples.

Results

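The miR-148 and miR-152 family consists of miR-148a-3p, miR-148b-3p and miR-152-3p, and its members were taken by name from the raw count tables of fetal myocardium, amniotic fluid and maternal serum in a rat model of ventricular septal defect (VSD). These 3 microRNAs (miRNAs) were members out of 682 miRNAs listed in the series, and all 3 were listed in each of the 5 tables. The question addressed here was whether the family differed between fetuses with and without a VSD, and whether its members moved together.

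Sprague-Dawley dams received either distilled water (NC group) or dimethadione (DMO), the active metabolite of the anticonvulsant trimethadione, by gavage during early heart development, and samples were taken on embryonic day 19. Fetuses of DMO-treated dams were divided into a VSD group, with a septal defect and correctly connected major vessels, and a non-VSD group, with an intact septum. Both DMO groups therefore shared the drug exposure, and only the comparison between them separated the defect from the exposure. Myocardium and amniotic fluid were available from NC, non-VSD and VSD fetuses, and maternal serum from NC and VSD pregnancies, with 7 samples in each of the 8 groups. The labels did not say which fetuses shared a dam, so the p-values below measure only the spread between these samples.

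A miRNA guides the silencing complex to messenger RNAs mainly through its seed, the bases close to its 5′ end, and miRNAs with the same seed are predicted to share most of their targets. The miR-148 and miR-152 family is best known for repressing DNMT1, the enzyme that copies DNA methylation onto newly made strands, and miR-148a and miR-152 are often studied in liver, in immune cells and in tumours. Host genes of the COPZ family, which code for a subunit of the coat of Golgi-derived vesicles, carry miR-148b and miR-152, whereas miR-148a lies apart from protein-coding genes.

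The mature sequences are shown because they define the family and because their likeness bears on how reads could be told apart. They are RefSeq sequences on the GRCr8 assembly, written 5′ to 3′, with the seed (bases 2 to 8) in capitals.
miR-148a-3p: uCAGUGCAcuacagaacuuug
miR-148b-3p: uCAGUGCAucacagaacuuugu
miR-152-3p: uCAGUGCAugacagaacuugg
All 3 carried the same seed, CAGUGCA, and among 693 mature rat sequences searched no other had these letters at bases 2 to 8. Counting from 1 at the 5′ end, miR-148a-3p differed from miR-148b-3p by C9U and U10C, and from miR-152-3p by C9U, U10G and U20G. The difference between miR-148b-3p and miR-152-3p was C10G and U20G. Because 2 or 3 bases separate the members, a read with errors at these bases could be counted under the wrong member, and how the authors treated such reads was not given in the sources used here.

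On GRCr8, which may not be the build used by the authors, the mature miR-148a-3p lies at chr4:81664447-81664467 on the minus strand, and its hairpin overlapped no annotated gene. The mature miR-148b-3p lies at chr7:136299930-136299951 on the plus strand, within the interval of Copz1. The mature miR-152-3p lies at chr10:82329435-82329455 on the plus strand, within the interval of Copz2. The opposite arm of a hairpin is usually degraded, and the sequences of 2 such arms are shown to make plain that they carry other seeds than the members.
miR-148a-5p: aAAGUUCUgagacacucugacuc
miR-152-5p: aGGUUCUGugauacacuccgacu

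Depth differed widely between the tissues, with 1694811 to 9371130 counts per myocardium library, 78188 to 331787 per amniotic fluid library and 147609 to 581350 per serum library. Levels are given as counts per 1000000 counts (CPM) after TMM scaling, which corrects each library for its composition. Amniotic fluid was sequenced with another kit and instrument than myocardium and serum, so its levels are set beside theirs without a test. The myocardium libraries were checked against 8 miRNAs of heart and skeletal muscle, all of which were detected in every group. A set of 3 libraries stood apart: NC 2, VSD 1 and VSD 4 had summed muscle markers of 13461, 14347 and 21912 CPM, against 47534 to 244991 CPM in the other 18. The same 3 libraries carried 14235, 15251 and 12121 CPM of the 8 epithelial markers, and only VSD 5 (11596 CPM) came near them. Results for myocardium are therefore also given without these 3 libraries, a choice made after seeing the data.

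miR-148a-3p was the leading member in myocardium and in serum, and miR-152-3p was the leading member in amniotic fluid. In NC myocardium, miR-148a-3p ranged from 42621 to 119655 CPM with a median of 60509 CPM, and its median rank among all miRNAs of a library was 4. miR-152-3p followed, with 4927 to 10509 CPM and a median of 7434 CPM. miR-148b-3p was the least abundant member there, with 1933 to 8486 CPM and a median of 3759 CPM. miR-148a-3p was the highest and miR-148b-3p the lowest of the 3 in all 21 myocardium libraries, although the ranges of miR-148b-3p and miR-152-3p overlapped across NC libraries. Together the family took up 6.64% ± 1.70 of all counts in NC myocardium (SD, n = 7).

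**Figure D1:**
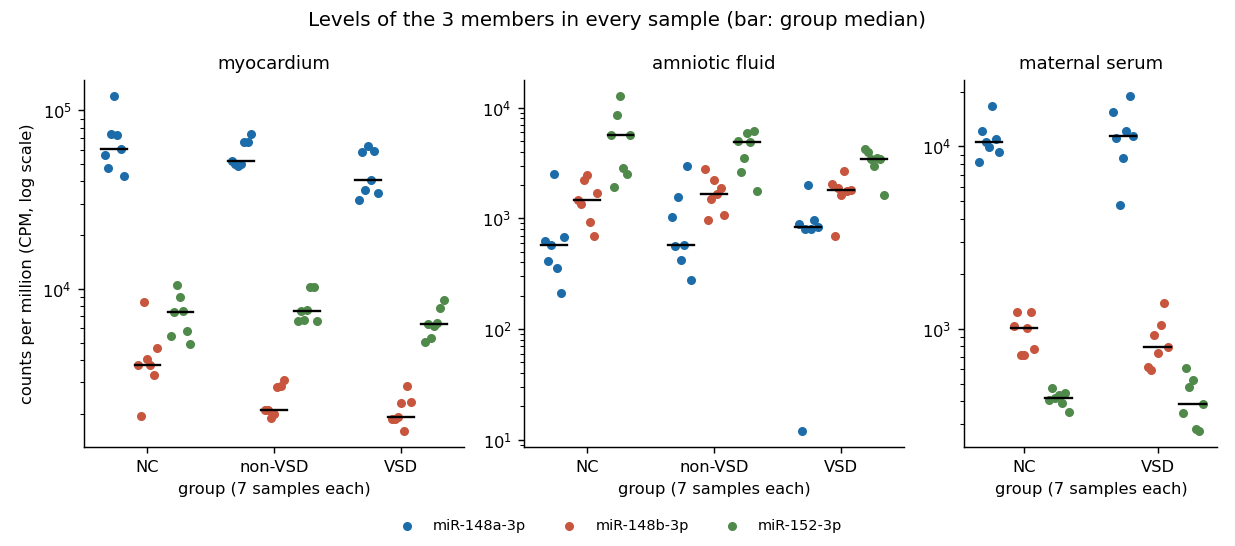
Levels of the 3 members in every sample, in CPM on a log scale, by group within each tissue; each point is 1 sample and the bar is the group median. miR-148a-3p is the highest member in myocardium and serum, miR-152-3p is the highest in amniotic fluid, and 1 amniotic fluid VSD sample lies at 12 CPM for miR-148a-3p.

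In NC amniotic fluid the order was turned around. miR-152-3p ranged from 1934 to 12633 CPM with a median of 5675 CPM, miR-148b-3p from 698 to 2440 CPM with a median of 1470 CPM, and miR-148a-3p from 214 to 2519 CPM with a median of 574 CPM. miR-152-3p was the highest member in all 7 NC libraries and in 20 of the 21 amniotic fluid libraries. The ranges of miR-148b-3p and miR-148a-3p overlapped, and miR-148b-3p was the higher of the pair in 6 of 7 NC libraries. The family took up 0.804% ± 0.506 of the counts in this group (SD, n = 7).

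In NC maternal serum, miR-148a-3p ranged from 8174 to 16664 CPM with a median of 10609 CPM. miR-148b-3p ranged from 714 to 1238 CPM with a median of 1003 CPM, and miR-152-3p from 351 to 473 CPM with a median of 417 CPM. These 3 ranges did not overlap, so serum was the fluid in which miR-152-3p was the scarcest member. The spread of miR-152-3p between NC serum samples was small, with a coefficient of variation of 9.37%, against 67.5% in NC amniotic fluid. In the VSD groups this contrast did not hold, with 30.6% in serum and 25.3% in amniotic fluid. The family took up 1.21% ± 0.195 of the counts (SD, n = 7).

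As a ratio of counts within the same library, miR-148a-3p was 9.17 times as abundant as miR-152-3p in NC myocardium (geometric mean, range 6.41 to 13.4) and 26.02 times as abundant in NC serum (range 20.01 to 42.2). In NC amniotic fluid the ratio was 0.123 (range 0.0676 to 0.217). The ranges of the 3 tissues did not overlap. How evenly each kit captured the 3 sequences was not measured, and for amniotic fluid the kit and the fluid cannot be told apart.

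**Figure D2:**
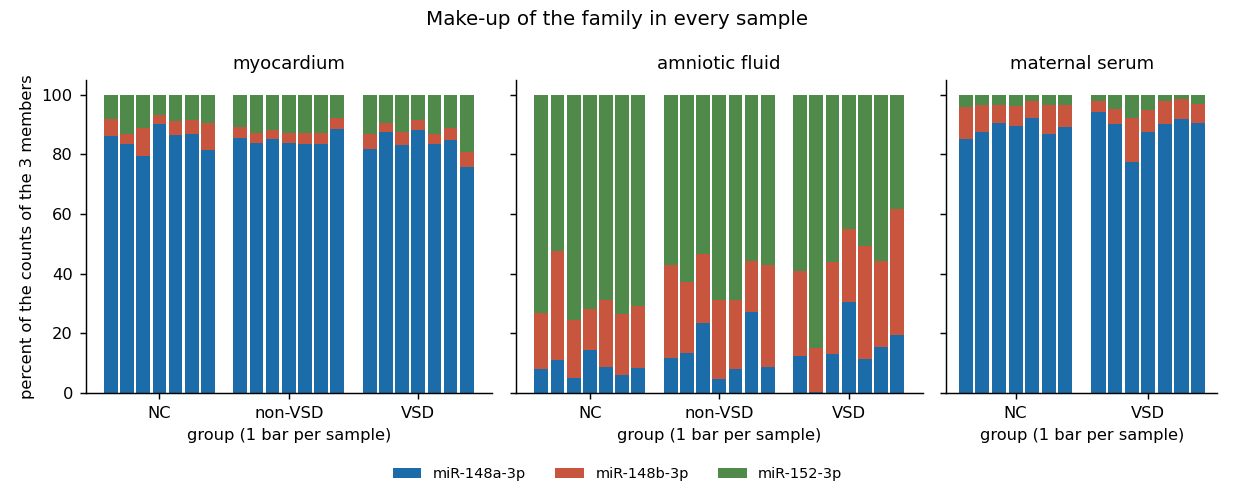
Make-up of the family in every sample: each bar is 1 library, split by the percent of the 3 members' counts that belongs to each. miR-148a-3p holds a mean of 84.9% of the family in NC myocardium and 88.7% in NC serum, and miR-152-3p holds 69.4% in NC amniotic fluid.

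Myocardium and serum were made with the same library kit and sequencer, and their NC groups were compared directly. All 7 myocardium samples lay above all 7 serum samples for each member. The log2 difference was 3.63 for miR-152-3p (12.3-fold), 2.11 for miR-148a-3p (4.33-fold) and 1.62 for miR-148b-3p (3.07-fold). Each gave p = 0.000583 in a two-sided exact permutation test, the smallest value that 3432 groupings allow, and the same after adjustment over the 3 members. The median difference over all miRNAs tested was 0.80 on the same log2 scale. The share of all miRNAs with the same full separation is not given here, so it is not known how particular this is to the members. RNA was extracted with different kits from paraffin blocks of fetal tissue and from serum of the dams. Tissue, fetal or maternal origin, and extraction therefore cannot be told apart.

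The arms of the hairpins were far from equal. In NC myocardium, 2486794 counts of miR-148a-3p stood against 27645 of miR-148a-5p, 152137 of miR-148b-3p against 1908 of miR-148b-5p, and 282040 of miR-152-3p against 3182 of miR-152-5p. The ratios of these sums were 90.0, 79.7 and 88.6, so the 3p arm exceeded the 5p arm by a like factor for each hairpin. In NC serum, 32849 counts of miR-148a-3p stood against only 9 of miR-148a-5p, whereas 2959 counts of miR-148b-3p stood against 31 of miR-148b-5p. In NC amniotic fluid, miR-148a-5p reached 126 counts against 719 of miR-148a-3p, a ratio of 5.71, with no miR-148a-5p count in 2 of the 7 samples. Without NC 4 the counts were 112 and 371, a ratio of 3.31. The 5p arms of miR-148b and miR-152 had 5 and 18 counts over the 7 NC amniotic fluid samples, too few to follow between groups.

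In myocardium, miR-148b-3p was the only member with an adjusted p under 0.05 when both DMO groups were set against NC. The members are compared with each other through their ratios below. NC samples ranged from 1933 to 8486 CPM with a median of 3759 CPM. Non-VSD samples ranged from 1898 to 3093 CPM with a median of 2102 CPM, and VSD samples from 1602 to 2872 CPM with a median of 1925 CPM. All 14 DMO samples lay below the NC median, and 6 of the 7 NC samples lay above every DMO sample. The exception was NC 2 at 1933 CPM, 1 of the 3 libraries low in muscle markers. With both DMO groups combined, miR-148b-3p fell by 0.92 on the log2 scale (SE 0.20, 95% interval -1.33 to -0.51), to 0.527 of the NC level, with an adjusted p of 0.0105 (edgeR quasi-likelihood test, Benjamini-Hochberg). It ranked 5 of 483 miRNAs by p in this comparison, in which 41 miRNAs (8.49%) were called at an adjusted p under 0.05 and 30 (6.21%) were called lower.

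It was the only member called in that comparison, and 2 of 3 members, miR-148b-3p and miR-148a-3p, were lower at an unadjusted p under 0.05, against 13% of all miRNAs. Without the 3 libraries low in muscle markers the fall was 1.03 on the log2 scale with an adjusted p of 0.00647. Scaling by library size alone put the median miRNA at 0.25 on the log2 scale, against -0.06 with TMM, and turned the split of calls from 11 higher and 30 lower to 47 higher and 9 lower. miR-148b-3p was among those 9, at -0.50 on the log2 scale with an adjusted p of 0.0368. The call remained in each of the 21 fits that left out 1 sample. The smallest change came without NC 3, the highest sample, at -0.66 on the log2 scale and an adjusted p of 0.0385. Over the same fits the calls among all miRNAs ranged from 15 (without NC 1) to 61 (without NC 2).

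**Figure D3:**
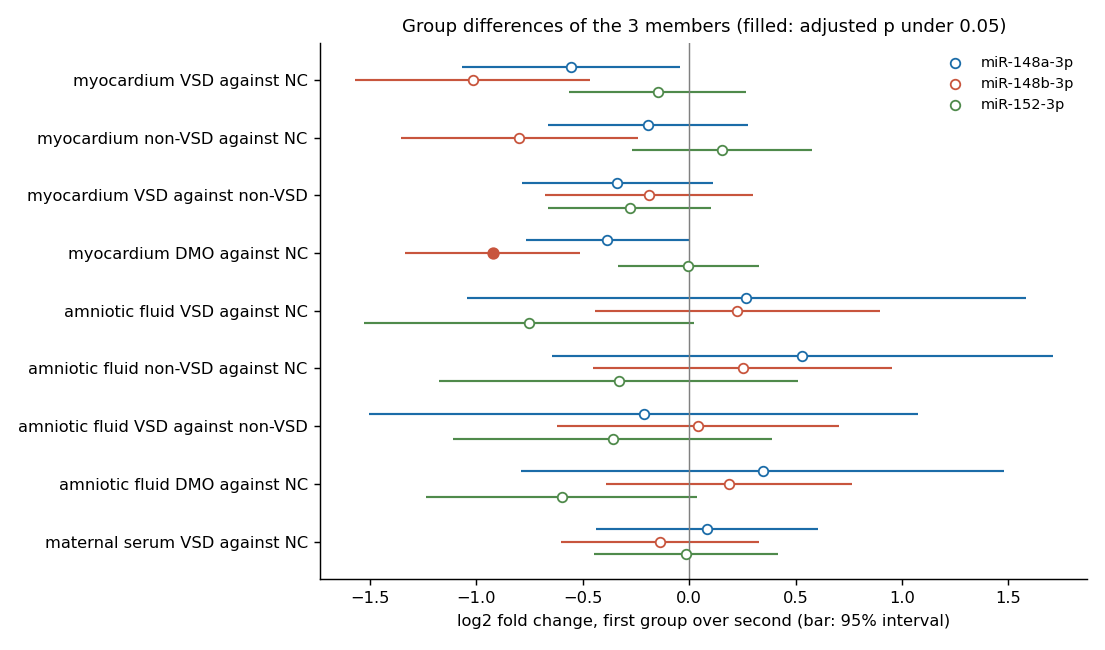
Log2 fold changes of the 3 members in the 9 comparisons, first group over second, with 95% intervals; DMO stands for the VSD and non-VSD groups combined. The 1 filled point, called at an adjusted p under 0.05, is miR-148b-3p in myocardium at -0.92, and the intervals of amniotic fluid are the widest.

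Taken against NC one at a time, neither DMO group passed the adjusted threshold for any member. For VSD against NC, miR-148b-3p was at -1.02 on the log2 scale (SE 0.26, 95% interval -1.57 to -0.47, adjusted p = 0.0645 by edgeR). In this edgeR fit it met the cut-off used in the study, an unadjusted p under 0.05 and a change of at least 2-fold. So did 6.82% of the miRNAs tested. The paper, with its own tools and scaling, lists no member of the family among its differentially expressed miRNAs in any tissue. For non-VSD against NC, miR-148b-3p was at -0.80 (SE 0.26, 95% interval -1.36 to -0.24, adjusted p = 0.126 by edgeR). The background of calls was 2 of 469 (0.426%) and 1 of 456 (0.219%), and without NC 2 it was 77 of 474 and 19 of 455. At an unadjusted p under 0.05 and a lower level, 2 of 3 members passed for VSD against 12.6% of all miRNAs, and 1 of 3 passed for non-VSD against 8.99%. By DESeq2, 1 member, miR-148b-3p, was called in each comparison, on a wider background of 46 of 469 and 48 of 456 miRNAs. By limma no member was called, with 2 and 1 calls among all miRNAs.

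Single libraries bore on these calls and on those of all miRNAs. Without NC 2, miR-148b-3p was called in both comparisons by edgeR, at -1.19 with an adjusted p of 0.00813 for VSD and at -0.92 with an adjusted p of 0.0376 for non-VSD. Without VSD 6, the highest VSD sample, it was called for VSD at -1.15 with an adjusted p of 0.0344, in a fit with 20 calls among 473 miRNAs. The calls gained were thus not particular to miR-148b-3p. Without all 3 libraries low in muscle markers, the VSD comparison missed the threshold at -1.16 with an adjusted p of 0.0556, with 11 samples left and 7 of 472 miRNAs called.

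miR-148b-3p did not differ between the DMO groups beyond the spread of the samples. The log2 difference of VSD against non-VSD was -0.19 (95% interval -0.68 to 0.30) with an adjusted p of 0.708 by edgeR. In this comparison 0 of 3 members were called, 0 at an unadjusted p under 0.05, and 0 by DESeq2 or limma, on a background of 0 calls (0%) among 483 miRNAs. The epithelial markers were higher and the muscle markers lower in VSD than in non-VSD samples, with values given below. The part of these markers in this comparison was not tested.

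The opposite arm, miR-148b-5p, was far scarcer. NC samples ranged from 28.7 to 69.3 CPM with a median of 44.7 CPM, non-VSD samples from 27.8 to 44.7 CPM with a median of 37.8 CPM, and VSD samples from 28.7 to 40.8 CPM with a median of 35.8 CPM. Its change with DMO was -0.42 on the log2 scale (SE 0.16, adjusted p = 0.114 by edgeR), so it was not called, and it was at -0.05 with scaling by library size alone. All 7 VSD and 6 of 7 non-VSD samples lay below the NC median.

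Other markers moved in the same samples as miR-148b-3p. All 4 red blood cell markers were called lower in DMO myocardium by edgeR: miR-144-5p at -2.21, miR-486 at -2.03, miR-144-3p at -1.96 and miR-451-5p at -1.76 on the log2 scale. With scaling by library size alone they were at -1.82, -1.65, -1.56 and -1.36, in that order, and miR-144-5p and miR-486 were still called. Their summed level ranged from 2651 to 91137 CPM in NC, from 3255 to 33986 CPM in non-VSD and from 3435 to 25159 CPM in VSD, and NC 2 had the lowest sum of all 21. Among 4 white blood cell markers only miR-142-5p was called (-2.09 on the log2 scale), with summed levels of 426 to 3758 CPM in NC, 378 to 2033 CPM in non-VSD and 278 to 1142 CPM in VSD. Among 8 muscle markers only miR-206-3p, a skeletal muscle miRNA, was called (-2.73), and of 8 epithelial markers none was called and none was at an unadjusted p under 0.05. Scaling by library size alone kept the call of miR-142-5p (-1.68) and lost that of miR-206-3p (-2.52, adjusted p = 0.0573 by edgeR). Of 3 liver markers none was called, and 1 was lower at an unadjusted p under 0.05. The epithelial sum ranged from 251 to 14235 CPM in NC, from 322 to 6580 CPM in non-VSD and from 1984 to 15251 CPM in VSD. No marker was at 0 in any group.

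Over the 21 myocardium samples, Spearman's rho of miR-148b-3p was 0.78 with the red blood cell sum, 0.76 with the muscle sum, 0.74 with the white blood cell sum and -0.69 with the epithelial sum. Within the 14 DMO samples the same values were 0.52, 0.62, 0.50 and -0.58, and within the 7 NC samples 0.57, 0.96, 0.57 and -0.68. The points share the library, its scaling and the group, and the values are descriptions. In bulk tissue, fewer cells of a type and less RNA per cell cannot be told apart, and the part of these markers in the change of miR-148b-3p was not tested.

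**Figure D4:**
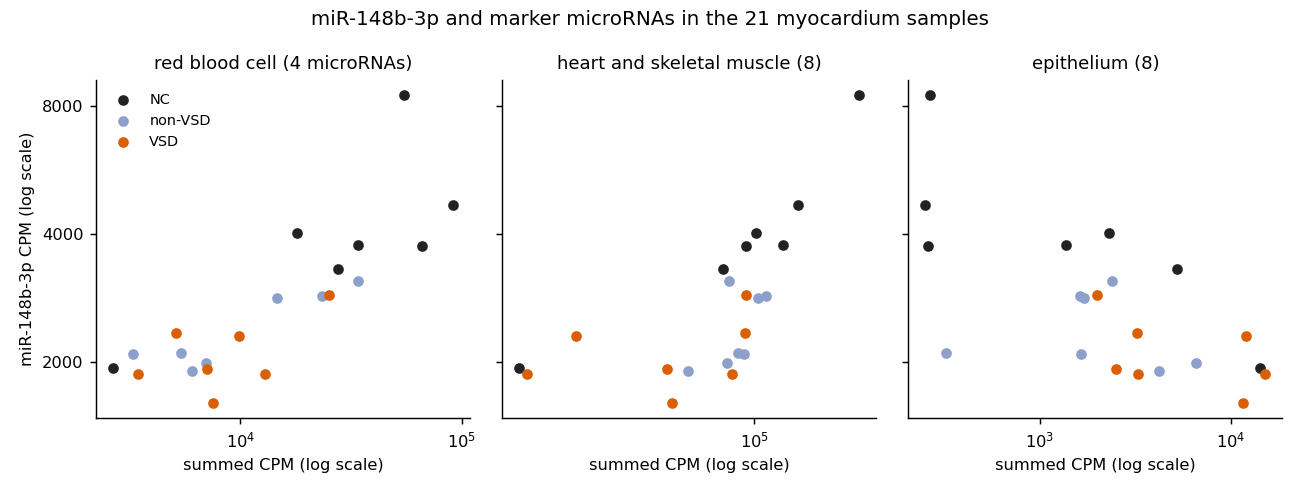
miR-148b-3p in the 21 myocardium samples against the summed level of red blood cell, muscle and epithelial marker miRNAs, all in CPM on log scales and coloured by group. The NC samples other than NC 2 lie highest for miR-148b-3p and mostly to the right for the red blood cell sum, and the 4 samples with the highest epithelial sums lie between 1602 and 2304 CPM for miR-148b-3p.

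miR-148a-3p, the most abundant member, showed a smaller difference in myocardium. NC samples had a median of 60509 CPM, non-VSD samples ranged from 49024 to 74078 CPM with a median of 51756 CPM, and VSD samples from 31337 to 63239 CPM with a median of 40733 CPM. The groups overlapped, although 4 of 7 VSD samples lay below every NC sample and 3 NC samples lay above every VSD sample. The log2 difference was -0.56 for VSD (SE 0.24, 95% interval -1.07 to -0.04, adjusted p = 0.211) and -0.19 for non-VSD (SE 0.22, adjusted p = 0.727) by edgeR. For both DMO groups together it was -0.39 (SE 0.18, adjusted p = 0.232 by edgeR) and -0.20 without NC 4, the sample at 119655 CPM. With scaling by library size alone these values were -0.12 for VSD, 0.08 for non-VSD and -0.02 for both, so the direction for non-VSD depended on the scaling. For VSD against non-VSD the log2 difference was -0.34 (95% interval -0.79 to 0.11, adjusted p = 0.475 by edgeR).

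miR-152-3p stayed within the spread of the samples in myocardium. Non-VSD samples ranged from 6582 to 10263 CPM with a median of 7559 CPM, and VSD samples from 5028 to 8668 CPM with a median of 6390 CPM, both across the NC range of 4927 to 10509 CPM. With both DMO groups together the log2 difference was -0.004 (95% interval -0.33 to 0.33, adjusted p = 0.987 by edgeR), and 0.34 with scaling by library size alone (adjusted p = 0.153). VSD was at -0.15 and non-VSD at 0.15 against NC on the log2 scale, with adjusted p values of 0.701 and 0.772 by edgeR. Scaling by library size alone turned the VSD value to 0.26. VSD against non-VSD gave -0.28 (95% interval -0.66 to 0.10, adjusted p = 0.483 by edgeR).

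Ratios of members within a library do not depend on scaling, and they were used to ask whether the members moved together. The log2 ratio of miR-148b-3p to miR-152-3p in myocardium was -0.83 ± 0.62 in NC, -1.72 ± 0.29 in non-VSD and -1.63 ± 0.25 in VSD (SD, n = 7). All 7 samples of each DMO group lay below the NC median, and the NC range, which includes NC 2, overlapped both. The differences from NC were -0.89 for non-VSD and -0.80 for VSD, each with p = 0.0111 in a two-sided exact permutation test and an adjusted p of 0.116 over the 21 ratio tests. The ratio of miR-148b-3p to miR-148a-3p was lower by 0.57 on the log2 scale in non-VSD than in NC (exact permutation p = 0.0338, adjusted p = 0.237) and by 0.39 in VSD (exact permutation p = 0.219, adjusted p = 0.510). The ratio of miR-148a-3p to miR-152-3p differed by -0.32 and -0.41 in non-VSD and VSD (exact permutation p = 0.0962 and 0.0804, adjusted p = 0.325 for each). No ratio passed after adjustment, so unequal movement of the members was not shown.

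**Figure D5:**
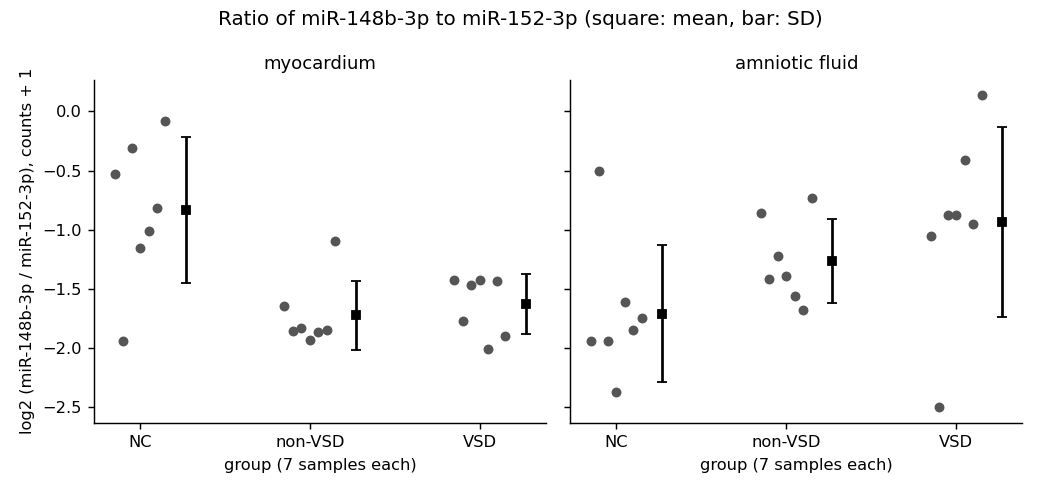
Log2 ratio of miR-148b-3p to miR-152-3p counts in each myocardium and amniotic fluid sample, by group, with the mean (square) and SD (bar). In myocardium the mean ratio is -0.83 in NC against -1.72 and -1.63 in the DMO groups, and in amniotic fluid it is -1.71 in NC against -1.26 and -0.93.

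In amniotic fluid, no member differed between groups beyond the spread of the samples, and miR-152-3p came nearest to it. NC samples ranged from 1934 to 12633 CPM with a median of 5675 CPM, non-VSD samples from 1783 to 6096 CPM with a median of 4879 CPM, and VSD samples from 1642 to 4244 CPM with a median of 3455 CPM. All 7 VSD samples lay below both the NC and the non-VSD median, and 4 of 7 NC samples lay above every VSD sample. The log2 difference was -0.75 for VSD against NC (SE 0.37, 95% interval -1.53 to 0.02, adjusted p = 0.375), -0.33 for non-VSD against NC (adjusted p = 0.733) and -0.36 for VSD against non-VSD (adjusted p = 0.857), by edgeR. For both DMO groups together it was -0.60 (95% interval -1.23 to 0.04, adjusted p = 0.339 by edgeR), and it ranged from -0.74 to -0.27 over the other settings and left-out samples. Without NC 4, the sample at 12633 CPM, the VSD value was -0.42.

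miR-148b-3p in amniotic fluid had medians of 1470 CPM in NC, 1647 CPM in non-VSD and 1804 CPM in VSD. The VSD range of 687 to 2655 CPM and the non-VSD range of 976 to 2776 CPM spanned most of the NC range. Its log2 differences were 0.23 for VSD (95% interval -0.44 to 0.90, adjusted p = 0.780) and 0.25 for non-VSD (95% interval -0.45 to 0.95, adjusted p = 0.755) against NC, by edgeR. The VSD group differed from the non-VSD group by 0.04 (adjusted p = 0.951 by edgeR), and by -0.05 with scaling by library size alone.

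miR-148a-3p was the most variable member in amniotic fluid. NC samples had a median of 574 CPM, non-VSD samples ranged from 275 to 2966 CPM with a median of 570 CPM, and VSD samples from 12 to 2012 CPM with a median of 828 CPM. The lowest value was a single count, in VSD 2, and the other 20 amniotic fluid libraries held 25 to 402 counts. Log2 differences were 0.27 for VSD (95% interval -1.04 to 1.58, adjusted p = 0.848) and 0.53 for non-VSD (95% interval -0.65 to 1.71, adjusted p = 0.673) against NC, by edgeR, and by limma the VSD value was -0.07. Without NC 4, at 2519 CPM, these values were 0.96 and 1.14, without VSD 4 the VSD value was -0.085, and without non-VSD 6 the non-VSD value was -0.034. A change of 2-fold in either direction lies within the VSD interval.

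None of the 3 members was called in any of the 4 amniotic fluid comparisons by edgeR, DESeq2 or limma, and none was at an unadjusted p under 0.05 with these tools under TMM scaling (DESeq2's size factors for DESeq2) and the default filter. In VSD against NC, miR-152-3p was under an unadjusted 0.05 by edgeR with scaling by library size alone (-0.81), with no filter on low counts (-0.79) and with all 3 groups in 1 fit (-0.78), at adjusted p values of 0.357, 0.232 and 0.391. The background by edgeR was 0 of 245 (0%) for VSD against NC and 12 of 242 (4.96%) for non-VSD against NC. It was 0 of 273 (0%) for VSD against non-VSD and 2 of 273 (0.733%) for both DMO groups against NC. In that order, DESeq2 called 0, 29, 6 and 16 miRNAs, and limma 0, 7, 0 and 2. The red blood cell markers moved in amniotic fluid too, where 2 of 4 (miR-451-5p and miR-486) were called higher in non-VSD samples. Over the 21 samples, rho of the summed red blood cell markers was -0.01 with miR-148b-3p, 0.14 with miR-148a-3p and -0.35 with miR-152-3p. The epithelial sum had a rho of -0.59 with miR-148a-3p. Their part in these values was not tested.

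The ratio of miR-148b-3p to miR-152-3p in amniotic fluid was -1.71 ± 0.58 in NC, -1.26 ± 0.35 in non-VSD and -0.93 ± 0.81 in VSD on the log2 scale (SD, n = 7). It was above the NC median in all 7 non-VSD samples and in 6 of 7 VSD samples. The differences from NC were 0.44 and 0.78 (exact permutation p = 0.108 and 0.0624, adjusted p = 0.325 for each).

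In maternal serum the groups did not differ beyond the spread of the samples. VSD samples ranged from 4801 to 18807 CPM with a median of 11375 CPM for miR-148a-3p, from 592 to 1387 CPM with a median of 791 CPM for miR-148b-3p, and from 275 to 608 CPM with a median of 387 CPM for miR-152-3p. For each member the VSD range covered the whole NC range. The log2 differences were 0.08 (95% interval -0.44 to 0.60), -0.14 (-0.60 to 0.33) and -0.02 (-0.45 to 0.42), in that order, with adjusted p values of 0.894, 0.808 and 0.974 by edgeR. No member was called by edgeR, DESeq2 or limma or reached an unadjusted p under 0.05 by any of them. The background was 0 of 219 (0%) by edgeR and by limma, and 4 of 219 by DESeq2. Differences of 2-fold in either direction lie outside all 3 intervals.

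The change of each member from NC to VSD samples was compared between tissues. This change holds both the DMO exposure and the defect. The test shuffled NC and VSD samples within each tissue separately, and so took the tissues as independent. Whether samples of different tissues came from the same fetus or dam was not given in the labels. For miR-148b-3p the mean log2 level changed by -0.92 in myocardium and by 0.23 in amniotic fluid, a difference of -1.15 (p = 0.0145, adjusted p = 0.130 over 9 tests, permutation test with 100000 permutations). With CPM of the library total the difference was -0.68 (adjusted p = 0.412). Against serum, where the change was -0.16, the difference was -0.76 (permutation p = 0.0615, adjusted p = 0.277). For miR-148a-3p and miR-152-3p the unadjusted p of the 6 such tests lay at or above 0.163 with TMM scaling. For miR-152-3p, myocardium minus amniotic fluid was at 0.89 with CPM of the library total (permutation p = 0.0650, adjusted p = 0.412). A difference between tissues in the response of a member was therefore not shown.

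The miRNAs whose levels followed each member most closely within a tissue differed from member to member. In myocardium, out of 482 compared over 21 samples, miR-148b-3p was followed by miR-106b-3p (rho 0.90), miR-25-3p (0.89) and the red blood cell miRNA miR-486 (0.89). All 3 were called lower with DMO by edgeR, at -1.08, -0.71 and -2.03 on the log2 scale, but with scaling by library size alone only miR-486 was. miR-148a-3p was followed by miR-671 (0.85), miR-125b-1-3p (0.80) and miR-27a-5p (0.72), and miR-152-3p by miR-27a-3p (0.75), miR-27b-3p (0.70) and miR-184 (0.68). Between members, rho was 0.64 for miR-148a-3p and miR-148b-3p, 0.50 for miR-148a-3p and miR-152-3p and 0.27 for miR-148b-3p and miR-152-3p.

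In amniotic fluid, members were among the closest miRNAs of miR-148b-3p and miR-148a-3p but not of miR-152-3p. Out of 272 compared over 21 samples, those closest to miR-148b-3p were miR-148a-3p (rho 0.63) and miR-152-3p (0.58), followed by miR-29c-3p (0.52). miR-148a-3p was closest to miR-299a-3p (0.65), then to miR-148b-3p (0.63) and miR-379-5p (0.59), and miR-152-3p to miR-345-3p (0.66), miR-485-5p (0.65) and miR-30a-5p (0.60). In serum, over 14 samples and 218 miRNAs, miR-148a-3p was followed by miR-17-5p (0.88), miR-24-3p (0.87) and miR-27a-3p (0.85). There miR-148b-3p was followed by miR-15b-5p (0.73), let-7i-5p (0.68) and miR-25-3p (0.64), and miR-152-3p by miR-200a-3p (0.80), miR-466b-3p (0.73) and miR-429 (0.72). These values are descriptions, since all points of a tissue share their libraries, depth and scaling.

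Among the 693 mature sequences searched, the letters of the seed also stood at bases 1 to 7 of 3 miRNAs of the miR-130 and miR-301 family. Their sequences are therefore shifted by 1 base relative to the members. They are shown to make the shift visible, with the shared letters in capitals.
miR-130a-3p: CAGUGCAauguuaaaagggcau
miR-130b-3p: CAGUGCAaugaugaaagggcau
miR-301b-3p: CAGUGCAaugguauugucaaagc
In DMO myocardium miR-130a-3p rose by 0.68 on the log2 scale (SE 0.20, adjusted p = 0.0341 by edgeR), and its call held without the 3 libraries low in muscle markers (0.78) and with scaling by library size alone (0.95). In the same comparison miR-301b-3p was at 0.75 (adjusted p = 0.0896) and miR-130b-3p at 0.28 (adjusted p = 0.408). The search may not hold every miRNA of that family. miR-301a-3p, of the family by name, was not found by it, and the paper lists it as higher in VSD myocardium.

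Other miRNAs known to repress DNA methyltransferases were read beside the family. Of 7 such miRNAs, 2 were called higher and 1 lower in DMO myocardium by edgeR, against 2.28% and 6.21% of all miRNAs tested. miR-29b-3p, of a family that represses DNMT3A and DNMT3B, rose by 1.06 on the log2 scale (SE 0.25, adjusted p = 0.0157), and miR-126a-3p, an endothelial miRNA, rose by 0.54 (SE 0.16, adjusted p = 0.0339). miR-185-5p fell by 1.23 on the log2 scale (SE 0.26, adjusted p = 0.0105). The directions and calls of these 3 held with scaling by library size alone, and without the 3 libraries low in muscle markers miR-126a-3p was no longer called (0.47, adjusted p = 0.103 by edgeR). The median of the 7 was 0.45, against -0.06 for all miRNAs tested. In amniotic fluid, miR-126a-3p and miR-185-5p were called higher in non-VSD samples than in NC, at 1.54 and 2.11 (adjusted p = 0.0464 for each by edgeR). Of all miRNAs tested there, 3.31% were called higher. None of the 7 was called or reached an unadjusted p under 0.05 in maternal serum. No messenger RNA, protein or methylation was measured here, so the level of DNMT1 in these samples is not known.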

How the data were processed

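Small RNA libraries were prepared from paraffin blocks of fetal myocardium and from maternal serum (TruSeq kit, HiSeq sequencer) and from amniotic fluid supernatant (QIAseq kit, NovaSeq sequencer). The authors converted and filtered the reads with bcl2fastq and the Fastx-toolkit and deposited raw read counts per mature miRNA. The aligner, the miRNA annotation and the genome build are not given in the sources used here. The deposited tables also hold 70 columns of the authors' normalized values, group means, and their own fold changes and p-values, none of which was used.

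Both tables of a tissue repeat the same NC counts, which were used once. An amniotic fluid miRNA listed in only 1 of the 2 tables was set to 0 in the group whose table did not list it. Counts were tested with edgeR 4.0.16 in R 4.3.3 (TMM scaling, filterByExpr, quasi-likelihood test, Benjamini-Hochberg adjustment over all miRNAs tested), with 14 samples per comparison with NC and with all 21 samples in 1 fit for VSD against non-VSD and for both DMO groups against NC. A miRNA was called at an adjusted p under 0.05. Log2 levels used a prior count of 2, and ratios of members used counts + 1 with exact permutation tests (SciPy 1.17.1). limma 3.58.1, DESeq2 1.42.0, other scalings and filters, a replicate block and leaving out samples were alternatives, and the fits without the 3 libraries low in muscle markers, and those of other named miRNAs under another scaling, were added after the data were seen. The main edgeR test across miRNAs was checked on simulated data, and the alternatives were not. A count of 0 allows up to 3 counts, or 38.4 CPM in the shallowest library, counting error only.

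Named miRNAs were the members, their other arms, miRNAs sharing the seed letters, a list of 7 miRNAs that repress DNA methyltransferases, the 3 closest miRNAs by Spearman correlation, and markers. The members and lists were chosen with earlier results of these data known. Sequences and gene intervals came from RefSeq tables of GRCr8, in which the members and 2 of 3 other arms were matched by name.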

Additional observations from a re-analysis of the deposited data

Results flagged for a closer look

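Of 24 groups of 7 samples checked for a sample far from the rest, 3 held one, where chance gives about 1 in 20. In NC myocardium, replicate 4 stood at 119655 CPM for miR-148a-3p and replicate 3 at 8486 CPM for miR-148b-3p. In NC amniotic fluid, replicate 4 stood at 2519 CPM for miR-148a-3p. For miR-148b-3p, the change from NC to VSD samples differed between myocardium and amniotic fluid by -1.15 on the log2 scale. The unadjusted permutation p was 0.0145, and the adjusted p was 0.130.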

How the results depend on the processing

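The 60 results gave 216 values under other settings. Of these, 197 kept their direction and side of the threshold, and so did 395 of 420 values with 1 sample left out. For miR-148b-3p in VSD against NC myocardium, edgeR's adjusted p fell under 0.05 with at least 10 counts in every sample (-0.90) and with all 3 groups in 1 fit (-1.02), as did DESeq2's (-0.999), and leaving out 1 sample gave -1.19 to -0.83. In non-VSD myocardium the same held with DESeq2 (-0.81), and leaving out 1 sample gave -0.92 to -0.54, where the first value, without NC 2, is also the fit without the libraries low in muscle markers, since only NC 2 of them is in this comparison. The cause was not tested.

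Directions turned only for values that were not called. With scaling by library size alone these were miR-152-3p in myocardium, VSD (0.26) and both DMO groups (0.34) against NC, miR-148a-3p in non-VSD myocardium (0.083), miR-148b-3p in amniotic fluid VSD against non-VSD (-0.050) and miR-152-3p in serum (0.079, and 0.028 with at least 10 counts). With CPM of the library total, the differences between tissues of miR-152-3p (myocardium minus serum, 0.30) and miR-148a-3p (amniotic fluid minus serum, -0.10) turned. By limma, miR-152-3p in DMO myocardium was at 0.019 and miR-148a-3p in amniotic fluid VSD against NC at -0.070. miR-152-3p in DMO myocardium was also at 0.013 with no filter on low counts and at 0.056 without the 3 libraries. With 1 sample left out, miR-152-3p ranged from -0.10 to 0.12 in DMO myocardium and from -0.12 to 0.084 in serum, and miR-148a-3p from -0.29 to 0.0071 in non-VSD myocardium and from -0.033 to 0.29 in serum. In amniotic fluid miR-148a-3p ranged from -0.085 to 0.96 for VSD and from -0.034 to 1.14 for non-VSD against NC, and from -0.46 to 0.30 for VSD against non-VSD, where miR-148b-3p ranged from -0.083 to 0.20. The highest value against NC came without NC 4 for both DMO groups.

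The labels did not say whether replicate numbers pair the samples. Correlations of same-numbered samples ran from -0.62 to 0.47, a range that cannot settle it. Between NC and VSD, their mean was -0.14 in myocardium, against 0.02 for other pairs. In serum it was 0.14, against -0.02. With the number as a block, miR-148b-3p in DMO myocardium was at -0.86 (adjusted p = 0.0562 by edgeR), miR-152-3p there at 0.000556, and calls among all miRNAs in that comparison went from 41 to 5, while no other call of a member changed.

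Calls among all miRNAs depended on the tool: DESeq2 gave 46, 48 and 66 for VSD, non-VSD and both DMO groups against NC in myocardium, where edgeR gave 2, 1 and 41 and scaling by library size 38, 22 and 56. With all 3 groups in 1 fit the first of these was 25 and the second 7, and with at least 10 counts 15 and 8. In amniotic fluid DESeq2 gave 29 and 16 for non-VSD and both DMO groups where edgeR gave 12 and 2, and 6 for VSD against non-VSD where edgeR gave 0, with 29 at an unadjusted p under 0.05. In serum it gave 4 where edgeR gave 0, with 30 at an unadjusted p under 0.05, and the block gave 5. For VSD against NC in amniotic fluid all 3 tools gave 0, with 33 at an unadjusted p under 0.05 by edgeR. With no filter on low counts, edgeR gave 1, 3 and 25 in those myocardium comparisons, 0 for both DMO groups in amniotic fluid and 3 in serum. In amniotic fluid, non-VSD against NC had 7 calls by limma and 2 with the block, both DMO groups had 8 with at least 10 counts and 1 with the block, and VSD against non-VSD had 4 with at least 10 counts and 1 with scaling by library size. The block gave 0 for VSD and for non-VSD against NC in myocardium. A filter of at least 10 counts gave no value for miR-148a-3p in amniotic fluid where VSD samples entered, since 1 held a single count.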
